A study of Mus musculus with 2 samples.

Results

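The 50 genes described here encode growth factor families whose secreted members act through receptor tyrosine kinases, a set of those receptors, and the proteins that bind insulin-like growth factors. They were taken by symbol from a table of read counts in mouse skin: the numbered Fgf and Fgfr genes, the Pdgf and Vegf genes, the Igfbp genes, and Igf1, Igf1r, Hgf, Met, Egf, Tgfa, Areg, Ereg, Btc, Hbegf, Egfr, Erbb2, Erbb3 and Pgf. The rule matched 56 of the 24421 symbols, and 50 of them exceeded 3 counts in 1 library or both, as did 16255 genes in all. Fgf3, Fgf8 and Igfbp1 were listed at 0 in both libraries, and Fgf15, Fgf17 and Fgf20 had 1 count in 1 library and 0 in the other. Fgf4, with 3 counts in control and 4 in stretched skin, lay just inside the floor. Vegfd appears in the table under its older symbol Figf, which the rule does not match. Fgf11, Fgf12, Fgf13 and Fgf14 encode intracellular proteins of the FGF family that are not receptor ligands. By their symbols they are counted here with the FGF ligands.

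The study asked how mechanical stretch of the skin starts hair growth. Whole-layer back skin of wild-type C57BL6/J mice was taken after 5 days under a stretching device (stretched skin) or without strain (control skin), with 1 library for each condition. The initial strain was 33%, and by the methods strain was increased daily. The mice were 8-week-old females with hair in the resting (telogen) phase. How many mice gave each library, and whether the control mice of these libraries wore the device, is not given in the sources used here (in the study of hair growth the untreated controls had none), so stretch, the device and a difference between animals cannot be told apart. The library totals were 14152379 in control and 11648655 in stretched skin, where 3 counts correspond to 0.212 and 0.258 CPM (counts per 1000000 counts of the library).

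Receptor tyrosine kinases are membrane proteins that pair when a ligand binds outside the cell, phosphorylate each other inside it, and pass the signal to the RAS, ERK and AKT kinases. In skin, fibroblast growth factors (FGFs) and HGF carry signals from the dermis and the dermal papilla to the epithelium, epidermal growth factors (EGFs) act among keratinocytes, platelet-derived growth factors (PDGFs) act on fibroblasts and pericytes, and vascular endothelial growth factors (VEGFs) act on vessels. IGF1 from mesenchymal cells and macrophages promotes growth, and the IGF binding proteins hold it in the extracellular space. The hair cycle uses several of these signals, among them FGF5, which ends the growth phase.

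For each gene the log2 ratio of CPM in stretched skin to control skin is given with its exact 95% counting interval (Clopper-Pearson). A gene is called higher or lower here when that interval lies wholly above or below 0. The interval covers counting error at most and compares these libraries, not the conditions, since there are no replicates and no p-value can be given. Expression levels of different genes are compared as FPKM (CPM divided by the exon length in kilobases). The median log2 ratio of all 16255 genes was -0.12 with scaling by total counts, and other scalings moved every ratio by the same amount, from -0.03 to 0.11.

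The 50 genes went both ways. In stretched skin 15 genes (30.0%) were higher and 18 (36.0%) were lower, and the intervals of 17 included 0. Over all genes 18.1% were higher and 33.5% were lower. With the median of ratios in place of total counts, 19 of the 50 were higher and 15 lower, against 24.7% and 23.4% of all genes. The median log2 ratio of the 50 genes was 0.02, with quartiles at -0.55 and 0.50, whereas the quartiles of all genes were -0.38 and 0.19. The 50 genes had a median of 432 counts over both libraries and all genes a median of 566, and 13 of the 50 had under 100 counts.

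Few of the differences were large, among the 50 genes as among all genes. The methods keep genes whose FPKM values have a product above 10 and call a ratio of at least 2 or at most 0.5. They use FPKM from Cufflinks and state no pseudocount, whereas here FPKM came from the counts and 1 was added to each before the product and the ratio. By this rule Igfbp2 was upregulated (2.94%) and no member was downregulated among the 34 that passed the filter. Over all genes that passed it, 2.61% were upregulated and 2.44% downregulated. The other 16 members were expressed at too low a level for this rule. With nothing added 29 members passed the filter, and again Igfbp2 was upregulated and no member downregulated. Without the filter and without added FPKM, the CPM ratio was at least 2 for Pgf, Fgf23, Igfbp2, Pdgfd and Pdgfc (5 of 50 members, 6.32% of all genes) and at most 0.5 for Fgf5, Fgf22, Fgf2 and Fgf6 (4 of 50 members, 5.47% of all genes). The intervals of Fgf2 and Fgf6 included 0.

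**Figure D1:**
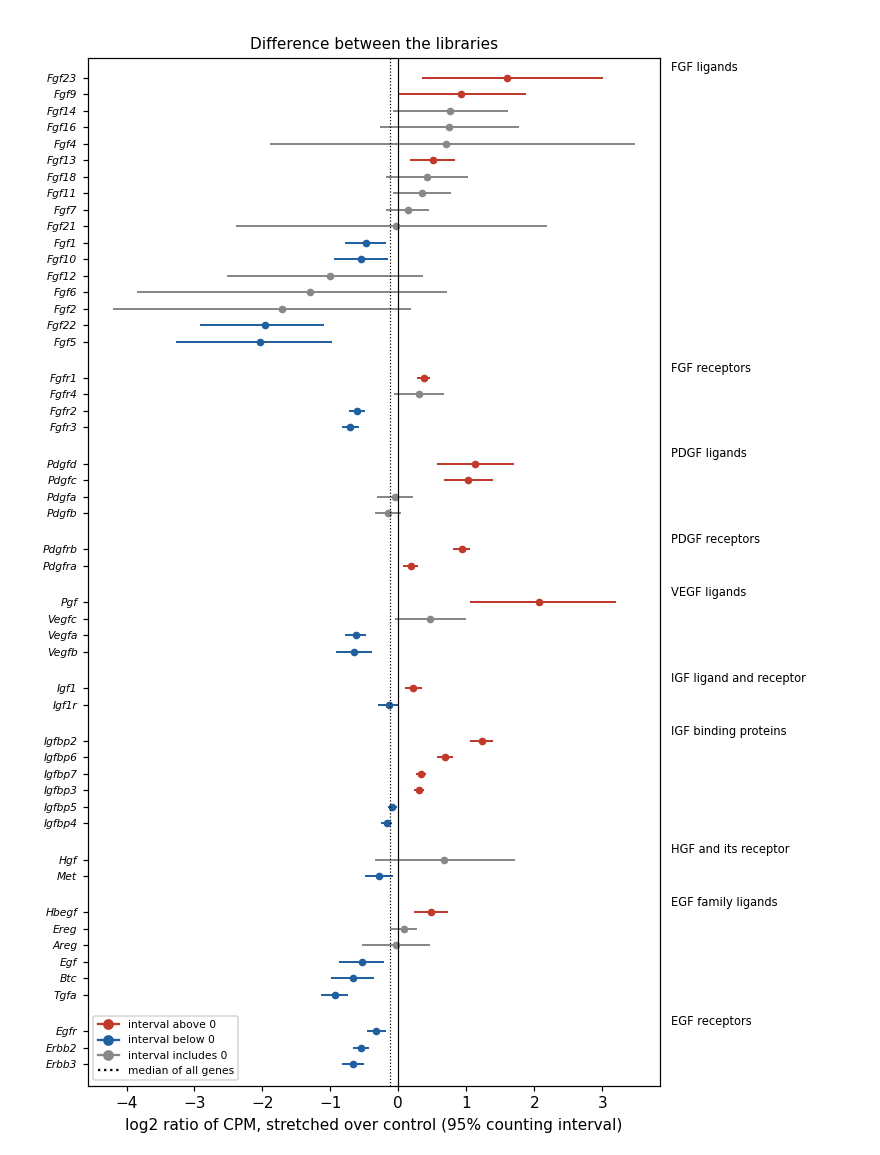
Log2 ratio of CPM in stretched skin over control skin (x axis) for each of the 50 genes (y axis, grouped by role), with 1 library per condition. Points are the ratios, bars are 95% counting intervals, red and blue mark intervals above and below 0, and the dotted line is the median of all genes (-0.12). The 3 EGF receptors lie to the left of 0, both PDGF receptors lie to the right, and the FGF ligands run from -2.04 to 1.603.

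The sequence before the start site is shown for Igfbp2, the upregulated member, and Fgf5, the member with the lowest ratio. Pgf and Fgf22, which also lie far from 0, are not shown, since their windows reach into the annotated gene. Each run is the 250 bases before a RefSeq start on GRCm38 (mm10), on the plus strand, for Igfbp2 at chr1:72824230-72824479 and for Fgf5 at chr5:98253934-98254183. Capitals mark matches on either strand to 2 of 6 motifs searched, the GC box GGGCGG and the core ACGTG that hypoxia factors and E-box factors can bind.
Igfbp2: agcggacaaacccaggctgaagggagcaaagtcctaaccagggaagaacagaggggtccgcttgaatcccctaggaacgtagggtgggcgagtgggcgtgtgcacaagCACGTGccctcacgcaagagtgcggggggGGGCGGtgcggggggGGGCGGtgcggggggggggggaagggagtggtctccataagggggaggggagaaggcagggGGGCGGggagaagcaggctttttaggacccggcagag
Fgf5: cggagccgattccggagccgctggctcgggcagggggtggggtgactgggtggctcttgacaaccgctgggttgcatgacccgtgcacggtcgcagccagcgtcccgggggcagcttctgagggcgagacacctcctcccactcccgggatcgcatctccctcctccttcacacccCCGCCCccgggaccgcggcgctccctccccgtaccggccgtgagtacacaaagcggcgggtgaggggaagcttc

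The Igfbp2 window shown holds 3 GC boxes and the Fgf5 window holds 1. RefSeq gives Igfbp2 another start inside the annotated gene, and the window before it (chr1:72825137-72825386, not shown) holds no GC box and 1 AP-1 site. Promoters on chromosome 18 were left out, among them those of Fgf1, Pdgfrb and Hbegf. Of the promoter windows of member genes used here, 55 windows of 42 genes, 56.4% held a GC box, against 33.0% of 32536 windows of the same length over all genes outside that chromosome. Their median GC content was 62.4%, against 52.4% over all windows. The other motifs searched, on both strands, were TGANTCA (the AP-1 site, in 9.09% of member windows and 6.73% of all), CATTCC (TEAD, 9.09% and 12.6%), CCAAT (21.8% and 33.8%) and TATAAA (9.09% and 12.3%), and ACGTG was in 14.5% and 16.7%. A match describes the letters and does not show a factor bound.

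The FGF ligands were expressed at low levels, and the members with the largest falls were among them. Of 17 measured FGF genes, 3 were higher, 4 were lower and 10 had intervals that included 0, with a median log2 ratio of 0.14 (5 were higher with 4 of the 5 other scalings). Over all genes 18.1% were higher and 33.5% were lower. None of the 17 exceeded 5 FPKM in either library, and only 5 passed the FPKM filter. Fgf5, which triggers the end of hair growth, is annotated on chromosome 5 (mm10, 98254184 to 98277030) and had 45 counts in control and 9 in stretched skin, a log2 ratio of -2.04 (interval -3.26 to -0.99). Fgf22, which belongs to the same subfamily as Fgf7 and Fgf10, had 66 counts in control and 14 in stretched skin (-1.96, interval -2.90 to -1.11). The difference was 4.12-fold for Fgf5 and 3.88-fold for Fgf22, on few reads. With 1 CPM added to both values the log2 ratios shrank to -1.24 for Fgf5 and -1.36 for Fgf22. Of all genes, 1.22% had a lower ratio than Fgf5 and 1.35% a lower ratio than Fgf22.

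Fgf10 and Fgf1 were lower by less. Fgf10, a dermal signal to the follicle epithelium, had 163 counts in control and 92 in stretched skin (-0.54, interval -0.93 to -0.17). Its relative Fgf7, the keratinocyte growth factor, had an interval that included 0. It had the highest level of the FGF ligands, 4.20 FPKM in control and 4.63 in stretched skin, with 193 and 175 counts (0.14, interval -0.16 to 0.44). Fgf1, a broadly acting FGF that binds all the receptors, had 287 counts in control and 169 in stretched skin (-0.48, interval -0.77 to -0.20). Fgf2, the basic FGF, had only 12 and 3 counts (-1.72, interval -4.18 to 0.17), an interval that includes 0, and 13.2% of its exonic bases lie in exons of other genes, among them Nudt6 on the opposite strand.

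Of the 3 higher FGF genes, Fgf13 encodes an intracellular protein that binds sodium channels and microtubules and is not secreted. It had 155 counts in control and 181 in stretched skin (0.50, interval 0.19 to 0.82). Fgf23, the bone hormone that controls phosphate, had 8 and 20 counts (1.603, interval 0.36 to 2.995), and Fgf9 had 18 and 28 (0.92, interval 0.01 to 1.86). The Fgf9 interval included 0 when keratin and muscle genes were left out of the totals. With 1 CPM added to both values the log2 ratio of Fgf23 was 0.80 and that of Fgf9 was 0.58. Fgf18, a signal that keeps follicles at rest, had 49 counts in control and 54 in stretched skin, and its interval included 0 (-0.16 to 1.01).

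The intervals of the other FGF genes included 0 with scaling by total counts. Fgf11 had 100 counts in control and 105 in stretched skin, Fgf14 had 23 and 32, and both were higher with 4 of the 5 other scalings. Fgf16 had 16 and 22 counts and Fgf12 had 17 and 7, a ratio just short of 2-fold lower. Fgf6 had 9 and 3 (interval -3.83 to 0.70) and Fgf21 had 5 and 4 (interval -2.37 to 2.17), widths at which a 2-fold difference was not detectable.

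The FGF receptors split. Fgfr1, which is the main FGF receptor of mesenchymal cells, had 2381 counts in control and 2544 in stretched skin, and was higher (0.38, interval 0.30 to 0.46). The receptors most used by epithelial cells were lower. Fgfr2, whose epithelial form binds FGF7, FGF10 and FGF22, had 2348 counts in control and 1270 in stretched skin (-0.61, interval -0.71 to -0.51). Fgfr3 had 2068 and 1044 (-0.71, interval -0.81 to -0.60), although 13.9% of its exonic bases overlap a gene on the opposite strand, G630022F23Rik. The counts do not separate receptor splice forms. In control skin Fgfr3 had the highest level of the 4 receptors (20.4 FPKM, against 17.0 for Fgfr1 and 16.1 for Fgfr2), whereas in stretched skin Fgfr1 did (22.1, against 12.5 for Fgfr3 and 10.6 for Fgfr2). Fgfr4 was the lowest, with 137 and 139 counts (2.73 and 3.37 FPKM) and an interval that included 0 (-0.05 to 0.65), although it was higher with 4 of the 5 other scalings.

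The EGF receptors were all lower in stretched skin. EGFR, ERBB2 and ERBB3 form pairs with each other, and ERBB2 has no ligand of its own while ERBB3 has little kinase activity. Erbb2 had 2313 counts in control and 1302 in stretched skin (-0.55, interval -0.65 to -0.45), and Erbb3 had 1047 and 542 (-0.67, interval -0.82 to -0.52). Egfr itself had 1368 counts in control and 900 in stretched skin, a smaller difference (-0.32, interval -0.45 to -0.20). All 3 stayed lower with every scaling tried, and their summed CPM was 334.1 in control and 235.6 in stretched skin. Erbb2 had the highest level of the 11 receptors among the 50 genes in control skin, 31.4 FPKM, against 21.5 in stretched skin.

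Of the 6 EGF family ligands, 3 were lower and 1 was higher. Tgfa, an EGFR ligand made by keratinocytes and follicles, had 842 counts in control and 362 in stretched skin, close to 2-fold lower (-0.94, interval -1.12 to -0.76). Btc, which encodes betacellulin, had 269 and 139 counts (-0.67, interval -0.98 to -0.37). Egf had 231 and 131 (-0.54, interval -0.86 to -0.22), and 9.8% of its exonic bases overlap genes on the opposite strand. Hbegf, a heparin-binding ligand known from healing epidermis, went the other way with 295 counts in control and 339 in stretched skin (0.48, interval 0.25 to 0.71). Ereg had 502 counts in control and 436 in stretched skin (0.08, interval -0.11 to 0.27), and its neighbour Areg had 82 and 66 (-0.03, interval -0.52 to 0.45). Among these 6 ligands Tgfa and Ereg changed order, with Tgfa at 9.17 and Ereg at 8.59 FPKM in control skin and Tgfa at 4.79 and Ereg at 9.07 in stretched skin.

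The PDGF system was higher at both receptors and at the ligands that are made as latent proteins. Pdgfrb, which marks pericytes and other perivascular cells and is also expressed by fibroblasts, had 1166 counts in control and 1828 in stretched skin (0.93, interval 0.82 to 1.04). Pdgfra, the receptor of dermal fibroblasts and their precursors, had 1781 and 1659 counts, which at the smaller depth of the stretched library gave a slight rise (0.18, interval 0.08 to 0.28). Pdgfrb went from 15.0 to 28.6 FPKM and Pdgfra from 12.6 to 14.2. In both libraries Pdgfrb was thus the higher of the pair, by a margin that was wider in stretched skin.

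Of the ligands, Pdgfc had 110 counts in control and 185 in stretched skin (1.03, interval 0.68 to 1.38). Pdgfd had 45 and 81 (1.13, interval 0.59 to 1.69). Both ligands carry a CUB domain that must be cut off before they can bind, and each had a ratio just above 2-fold. Pdgfb, made by endothelial cells, had the highest level of the PDGF ligands but was not among the higher genes, with 644 counts in control and 476 in stretched skin (-0.16, interval -0.33 to 0.02), although it was lower when keratin and muscle genes were left out of the totals. Pdgfa had 301 and 240 counts (-0.05, interval -0.30 to 0.20), and 26.1% of its exonic bases overlap 6330403L08Rik on the opposite strand, so its value is uncertain.

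Of the 4 VEGF ligands among the 50 genes, 1 was higher and 2 were lower. Vegfa, the main signal for blood vessel growth, had 1261 counts in control and 671 in stretched skin (-0.63, interval -0.77 to -0.49). Vegfb had 385 and 201 (-0.66, interval -0.91 to -0.41). Pgf, or placental growth factor, which binds FLT1 and is low in resting skin, had the highest ratio of all 50 genes, with 11 counts in control and 38 in stretched skin (2.07, interval 1.07 to 3.19). It is annotated on chromosome 12 (mm10, 85166635 to 85177790). Of all genes, 98.9% had a lower ratio than Pgf, but its level stayed low (0.268 and 1.12 FPKM), and with 1 CPM added to both values its log2 ratio was 1.26. Vegfc, the lymphatic ligand, had 64 counts in control and 73 in stretched skin (0.47, interval -0.03 to 0.98) and was higher with 4 of the 5 other scalings. The gene listed as Figf (Vegfd) had 128 and 132 counts (0.33, interval -0.04 to 0.69). Vegfa remained the ligand with the highest level, 20.8 FPKM in control and 13.4 in stretched skin.

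**Figure D2:**
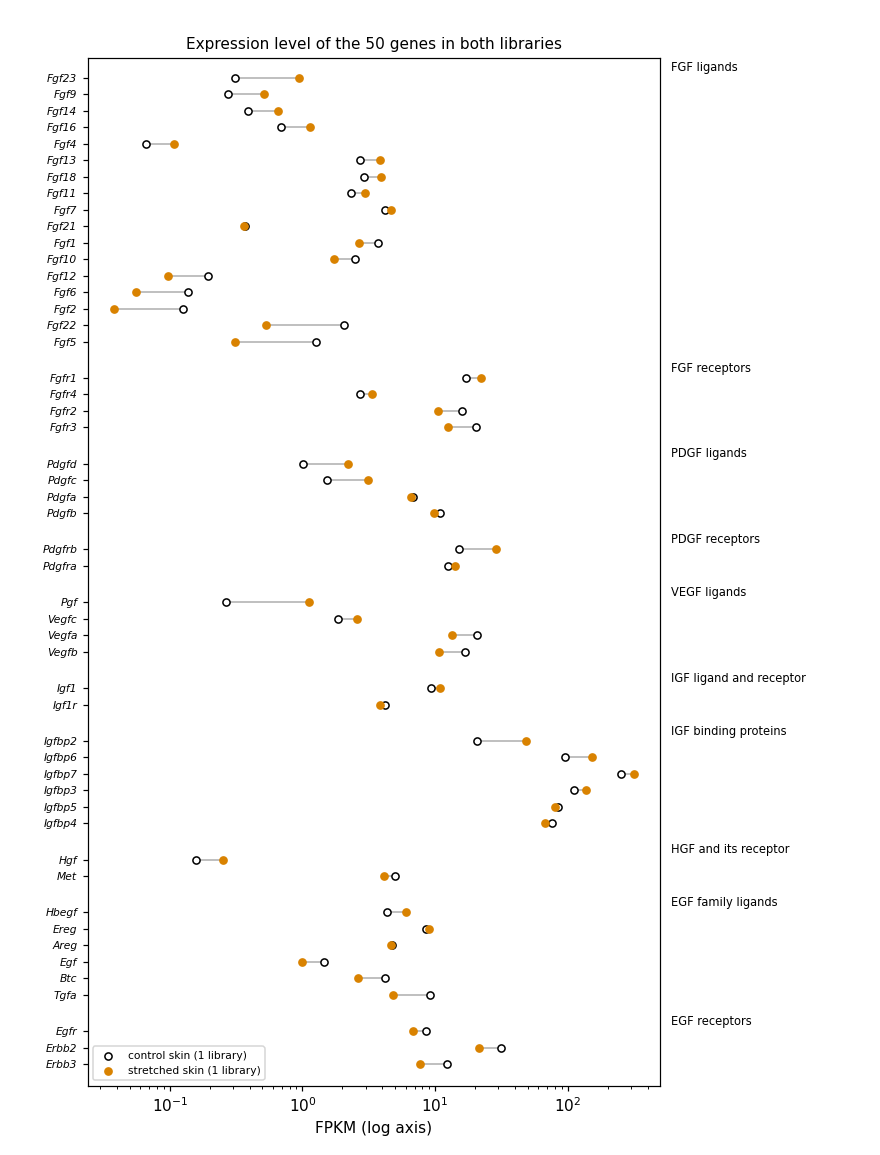
Expression level (FPKM, log axis) of each of the 50 genes in control skin (open circles) and stretched skin (filled circles), 1 library each, grouped by role. The IGF binding proteins other than Igfbp2 lie above the other genes, between 67.9 and 316.0 FPKM, Igfbp2 lies at 20.6 and 48.2, and all FGF ligands lie below 5 FPKM.

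The IGF binding proteins had the largest share of the expression of the 50 genes, and the upregulated member was one of them. Summed as FPKM, the 6 measured binding proteins gave 70.2% of the total of the 50 genes in control skin and 76.4% in stretched skin, while the 33 ligands gave 13.9% and 10.8% and the 11 receptors 15.9% and 12.9%. By counts, which favour long transcripts, the binding proteins had 49.6% in control and 54.6% in stretched skin and the receptors 34.4% and 31.2%. Igfbp2, which encodes a binding protein with an integrin-binding motif, is annotated on chromosome 1 (mm10, 72824503 to 72852474) and had 539 counts in control and 1037 in stretched skin, a rise of 2.34-fold (log2 1.22, interval 1.07 to 1.38), and went from 20.6 to 48.2 FPKM. It was upregulated under every setting of the call that was tried.

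The other binding proteins differed by less. Igfbp6, which prefers IGF2 over IGF1, had 1501 counts in control and 1990 in stretched skin (0.69, interval 0.59 to 0.79). Igfbp7, a low-affinity member found around vessels and in the matrix, had 4300 and 4450 counts (0.33, interval 0.27 to 0.39) and was the most highly expressed of the 50 genes, at 251.3 and 316.0 FPKM. Igfbp3, the main carrier of IGF in blood, had 4944 and 5026 (0.30, interval 0.25 to 0.36). Igfbp4 had 4788 counts in control and 3493 in stretched skin and was lower (-0.17, interval -0.24 to -0.11). Igfbp5 had the most counts, 7234 and 5600, and its small difference (-0.09, interval -0.14 to -0.04) changed sign with 3 of the scalings. Its annotated span begins at 72857932 on chromosome 1, next to Igfbp2.

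Igf1, one of the growth factors that the study followed in sorted macrophages, differed little in whole skin at day 5. It had 1314 counts in control and 1258 in stretched skin, a log2 ratio of 0.22 (interval 0.11 to 0.33), which is 1.16-fold higher. Its receptor Igf1r had 1002 and 748 counts (-0.14, interval -0.28 to -0.00), and that interval included 0 with 4 of the 5 other scalings. The other ligand of this receptor, Igf2, a fetal growth factor that the rule did not select, differed far more. It had 471 counts in control and 2093 in stretched skin (2.43, interval 2.29 to 2.58) and was upregulated.

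Hgf, another growth factor followed in macrophages, was near the limit of detection. It had 16 counts in control and 21 in stretched skin, or 0.157 and 0.251 FPKM (0.67, interval -0.33 to 1.71). The interval runs from 0.793-fold to 3.27-fold. Its receptor Met, expressed by epithelial cells, had 546 and 368 counts and was lower (-0.29, interval -0.48 to -0.10), with an interval that included 0 under the TMM factors, the median of ratios and the upper quartile. The study also followed FGF10, FGF2, VEGF and keratinocyte growth factor (FGF7) by RT-PCR in sorted macrophages. Those stretched samples were of later days than these libraries, and the paper reports rises of Hgf, Igf1 and Fgf10 on release of the stretch. The whole-skin values differ in tissue and time, so they do not bear on that result. In whole skin Igf1 was higher, Fgf10 and Vegfa were lower, and the intervals of Hgf, Fgf2 and Fgf7 included 0.

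**Figure D3:**
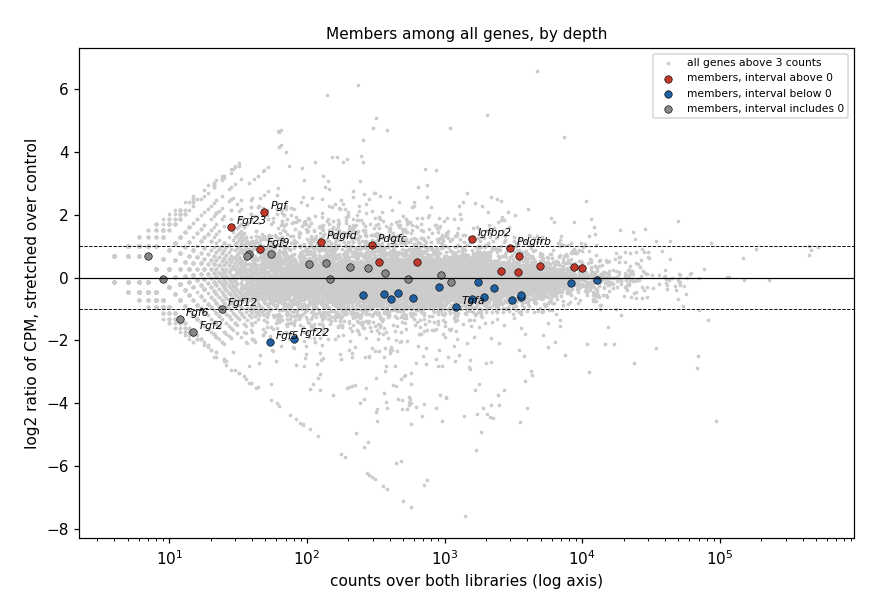
Log2 ratio of CPM, stretched over control (y axis), against the counts over both libraries (x axis, log axis) for all 16255 genes (grey) and the 50 members (coloured by their interval), with names where the log2 ratio is beyond 0.85 in either direction. Dashed lines mark 2-fold. Pgf, Fgf23, Fgf5 and Fgf22 lie past 2-fold at under 100 counts, and Igfbp2 at 1576.

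The surrounding pathway was described with lists of genes that are not members. Beside the counts in these lists and in the marker lists below stand the shares over all genes. These were 18.1% higher and 33.5% lower, or 24.1% and 24.1% with TMM. Of 9 VEGF receptors, coreceptors and angiopoietin genes, 3 were higher and 2 lower. The lymphatic receptor Flt4 was the highest (136 and 216 counts, 0.95) and the coreceptor Nrp2 the lowest (1501 and 823, -0.59). Of 10 other insulin and IGF genes, 4 were higher and 3 lower, with Igf2 upregulated. Of 8 other EGF family genes 0 were higher and 4 lower, from Errfi1, an inhibitor of EGFR (0.03), down to the ligand Nrg2 (-0.70). With TMM, the median of ratios or the upper quartile 1 of these 8 was higher and 2 were lower.

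Among 8 FGF cofactors, 3 were higher and 2 lower, from the decoy receptor Fgfrl1 (0.46) to Klb, the coreceptor of FGF21 (-0.93). The 8 genes around HGF activation had 3 higher and 3 lower, from the protease Plau (0.55) to Spint1, an epithelial inhibitor of the HGF activator (-0.95). Of 16 other receptor tyrosine kinases and their ligands, 9 were higher and 5 lower, and Csf1r, the macrophage receptor, was upregulated (1763 and 3216 counts, 1.15). Adaptors and kinases inside the cell had 4 higher and 8 lower of 20, from Akt1 (0.22) to Braf (-0.73). That balance depends on the scaling, with 8 higher and 7 lower by the median of ratios and 7 and 8 by TMM or the upper quartile.

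Genes that ERK signalling is known to induce, or that feed back on it, had 2 higher and 8 lower of 16, with a median of -0.24 against -0.12 for all genes. With TMM, the median of ratios or the upper quartile 3 were higher and 7 lower. Etv4, a transcription factor downstream of FGF signals, was downregulated, with 795 counts in control and 298 in stretched skin (-1.13, interval -1.33 to -0.94). Fosl1, an AP-1 component, was upregulated with 93 and 266 counts (1.80, interval 1.45 to 2.15). Of the feedback inhibitors in the list, Dusp4 (-0.58), Dusp5 (-0.60), Spred1 (-0.16) and Spred2 (-0.69) were lower, and the intervals of Dusp6, Spry1, Spry2, Spry4 and Spred3 included 0.

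**Figure D4:**
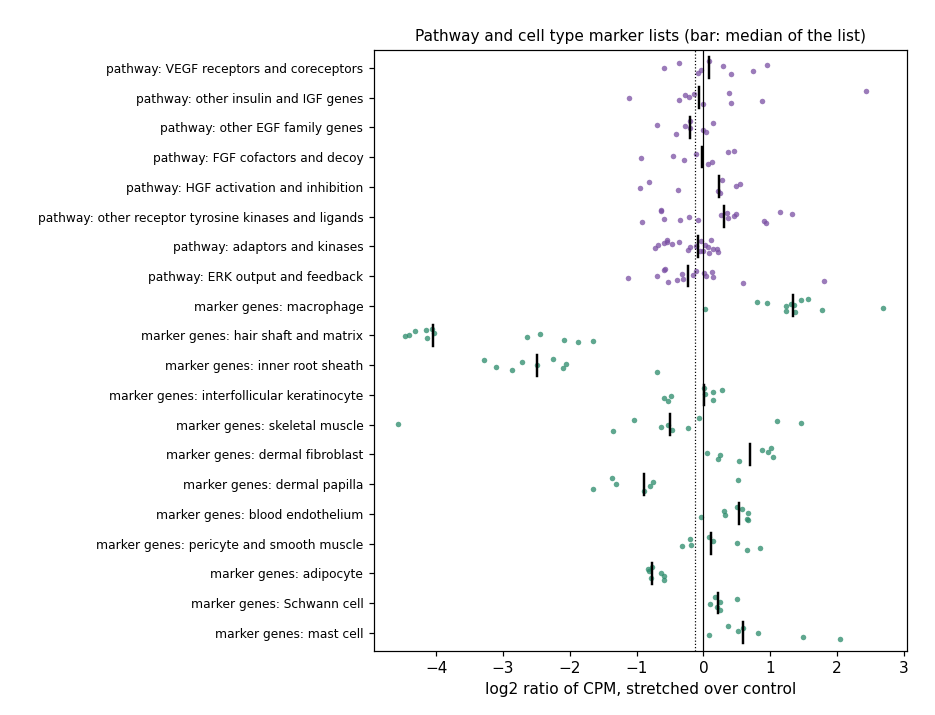
Log2 ratio of CPM, stretched over control (x axis), of each measured gene in the pathway lists (purple) and the cell type marker lists (green), with the median of each list as a black bar and the median of all genes as a dotted line. Hair shaft and inner root sheath markers lie far to the left (medians -4.05 and -2.50), and macrophage markers lie to the right (1.34).

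Markers of several cell types moved in the same libraries, and none of those listed was at the floor. In whole skin, fewer cells of a type and less RNA per cell cannot be told apart. All 12 hair shaft and matrix markers, which growing follicles express, were lower (median -4.05, summed CPM 1851 in control and 217.0 in stretched skin), although several of these keratins are close copies of each other and may share reads. All 9 inner root sheath markers were lower as well (median -2.50, 13818 and 2393 CPM), and 6 of 7 dermal papilla markers (median -0.88, 174.0 and 92.5 CPM). The mice were in telogen by the methods, but these follicle genes were well detected in control skin, and the labels give no hair cycle stage for a library. Fgf5, Fgf22, Fgf10, Tgfa, Fgfr2 and Fgfr3 moved in the same direction as these markers, and the part of the follicle markers in their difference was not tested.

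The markers of the epidermis between follicles went both ways, with 4 higher and 3 lower of 8 around a median of 0.01 and a summed CPM of 15488 in control and 16178 in stretched skin. Krt14 (0.28), Krt1 (0.15), Lor (0.14) and Krt10 (0.02) were higher, Trp63 (-0.49), Dsg1a (-0.59) and Ivl (-0.53) were lower, and the interval of Krt5 (0.01) included 0. Without keratin and muscle genes in the totals 3 were higher and 4 lower, with a median of -0.02. All 7 adipocyte markers were lower (median -0.77, 1925 and 1206 CPM), as were Vegfa and Vegfb. The skeletal muscle markers went both ways, with 2 higher and 8 lower of 10 (median -0.50, 32925 and 23415 CPM).

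On the other side, all 8 dermal fibroblast markers were higher (median 0.70, 41403 CPM in control and 77801 in stretched skin), as were Pdgfra, Fgfr1 and Igfbp6. Of the blood endothelium markers 6 of 8 were higher and 0 lower (median 0.53, 220.5 and 310.3 CPM). The pericyte and smooth muscle markers had 4 higher and 2 lower of 8 (median 0.11, 1699.5 and 2623 CPM). Des (0.85), Cnn1 (0.65), Myh11 (0.51) and Acta2 (0.14) were higher, Cspg4 (-0.21) and Abcc9 (-0.32) were lower, and the intervals of Rgs5 (0.08) and Kcnj8 (-0.18) included 0. With TMM, the median of ratios or the upper quartile 4 of these 8 were higher and 1 was lower, with medians of 0.21, 0.22 and 0.21. Skeletal muscle also expresses Des, and without it, a choice made after seeing the data, the summed CPM was 614.5 in control and 672.5 in stretched skin, with 3 higher and 2 lower of 7. Of 12 macrophage markers 11 were higher (median 1.34, 949.5 and 2136 CPM). Mast cell markers had 6 of 7 higher (median 0.59, 235.9 and 362.7 CPM) and Schwann cell markers 3 of 6 (median 0.22, 624.3 and 709.4 CPM), or 6 of 6 with TMM, the median of ratios or the upper quartile. The part of any cell type in the difference of a member was not tested.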

How the data were processed

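RNA was sequenced from whole-layer mouse skin with single-end reads of 76 bases. The authors filtered the reads on base quality, aligned them to mm10 with TopHat2, and deposited a raw count of reads per gene symbol for each library. The program that counted, its annotation and its use of strand are not given in the sources used here, so 3 members with over 10% of their exonic bases in exons of another gene (Pdgfa, Fgfr3 and Fgf2) are uncertain.

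CPM was computed from each count and the total of its library, and FPKM was computed here from the counts and the exon union of GENCODE M21, which is on the same build. Lengths were found for 23384 genes by name and 650 by synonym. Ratios were taken without a pseudocount, with counts of 3 or fewer set to 3. Each ratio has a 95% interval, obtained by turning the Clopper-Pearson bounds on the stretched share of a gene into bounds of the ratio. The intervals treat reads as independent and leave out all error but that of counting. PCR reads without molecular identifiers are not independent molecules, so the intervals may be too narrow even for counting error.

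With 1 library per condition no test across replicates was possible. Calls followed the filter and fold threshold of the methods, but on FPKM computed here in place of the Cufflinks values of the study, and with 1 added to each, which the methods do not state, so they need not match its calls. Their alternatives and those of the scaling (TMM and upper quartile of edgeR 4.0.16, median of ratios of DESeq2 1.42.0, totals without abundant genes) are given in the closing section. Every member is given with its counts, and those whose interval excludes 0 or that the study measured by RT-PCR with ratio and interval too. Intervals of further members were added after their values were seen. Pathway genes are named where upregulated or downregulated, and otherwise as the highest and lowest of a list with at least 100 counts over both libraries. The feedback inhibitors, Figf and the single marker genes were named after their values were seen. The members and lists were chosen with earlier results of these data known. Intervals and calls were tested on simulated data. Promoter windows come from RefSeq on GRCm38. R 4.3.3 and Python 3.11.15 with scipy 1.17.1 were used.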

Additional observations from a re-analysis of the deposited data

How the results depend on the processing

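No alternative moved the number of higher or lower members by more than 1.5 times. The higher members numbered 14 to 19 and the lower members 15 to 19. Scaling by TMM, by the median of ratios and by the upper quartile each added Fgf11, Fgf14, Fgfr4 and Vegfc to the higher members and took Igf1r, Igfbp5 and Met from the lower ones. With these scalings, in that order, Igfbp5 changed sign to 0.0145, 0.0222 and 0.0133. Leaving the 50 most counted genes out of the totals added the same higher genes and took Igf1r and Igfbp5 from the lower ones. The median log2 ratio of the members ranged from -0.0088, with totals that leave out keratin, keratin-associated protein and skeletal muscle genes, to 0.13 with the median of ratios, so it has no fixed sign. Igfbp2 was upregulated under every alternative. The alternative of an interval wholly past 2-fold used CPM ratios, without the FPKM filter and without added FPKM. There Pgf, which does not pass the filter, was upregulated too, which made 2. The count of downregulated members went from 0 to 1 without the FPKM filter, with CPM in place of FPKM, and with an interval wholly past 2-fold (again without the filter). That member was Fgf22 each time, which does not pass the FPKM filter. Of 250 values of the 50 members under the 5 other scalings, 221 kept the position of their interval (above 0, below 0 or including 0). With 1 CPM added all 50 ratios lay inside their counting intervals, but those of genes with few counts shrank, as given for Fgf5, Fgf22, Pgf, Fgf23 and Fgf9. The median without any floor on counts was left out, since the added genes are at the floor in both libraries. No paired analysis was possible because each condition has a single library, which also means that none could be omitted. Depth limits the members with under 100 counts over both libraries, which are FGF ligands, Pgf and Hgf.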
